A study of Arabidopsis thaliana with 6 samples.

Results

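The very broad H3K9Ac domains described here are the peaks of the air list that spanned 1500 bp or more. They numbered 568 of the 18314 air peaks and were selected on their breadth in air alone. H3K9Ac, acetylation of lysine 9 of histone H3, was mapped by chromatin immunoprecipitation and sequencing in whole seedlings of *Arabidopsis thaliana* that were 3 days old and grown in the dark. Seedlings received 10 ppm ethylene or air for 4 h, and all of them carried *ein2-5*, a loss-of-function allele of EIN2, which encodes the central membrane protein of ethylene signalling. Each treatment had 2 H3K9Ac libraries and 1 control library, which the titles call IgG and the antibody field calls Protein G beads. The libraries of a treatment were pooled before peaks were called, so that every value below is 1 value per treatment without replicate error, and no difference between ethylene and air could be tested.

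Acetylation of lysine 9 reduces the positive charge of the histone tail and is read by bromodomain proteins, and in plants it is found over the first part of transcribed genes. Most H3K9Ac peaks are narrow and end soon after the gene start. In animals, broad domains of another active mark, trimethylation of lysine 4, are known from genes that define the identity of a cell.

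In the 559 domains with an ethylene peak, the air and ethylene summits lay a median of 53 bp apart (quartiles 22 and 150.5 bp). The ethylene summit is that of the ethylene peak of highest fold enrichment. This distance was 41 bp in air peaks of 1000 to 1499 bp and 28 bp in all air peaks other than the domains. In most domains the air summit lay in coding sequence. To show where in the genes the domains peaked, 101 bases centred on the air summit are given for 6 domains, each wholly in coding sequence (TAIR10.1 reference, gene strand, 5′ to 3′). They are the 4 broadest domains that had both summits in such a window, and 2 over genes of auxin transport and brassinosteroid synthesis. Capitals mark the stretch that begins at one of the summits and ends at the other.
AT4G18670: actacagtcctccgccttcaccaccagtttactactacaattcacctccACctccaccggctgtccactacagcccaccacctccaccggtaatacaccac
HSL1: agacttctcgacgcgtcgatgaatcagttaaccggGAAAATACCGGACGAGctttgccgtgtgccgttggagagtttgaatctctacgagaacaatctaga
AT5G19090: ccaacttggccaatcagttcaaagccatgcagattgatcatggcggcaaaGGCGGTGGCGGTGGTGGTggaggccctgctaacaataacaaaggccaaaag
PATL1: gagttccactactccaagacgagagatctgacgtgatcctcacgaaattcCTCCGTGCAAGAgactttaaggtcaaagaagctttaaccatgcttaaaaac
PIN3: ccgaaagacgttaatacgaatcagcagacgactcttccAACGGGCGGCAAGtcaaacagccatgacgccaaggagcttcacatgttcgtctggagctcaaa
DWF4: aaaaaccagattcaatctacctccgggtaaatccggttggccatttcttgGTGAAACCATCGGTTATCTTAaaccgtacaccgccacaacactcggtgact

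These windows lie at chr4:10276011-10276111 on the minus strand in AT4G18670, which encodes a leucine-rich repeat protein, and at chr1:9997751-9997851 on the plus strand in HSL1, which encodes a receptor-like kinase. The window of AT5G19090, annotated as a heavy metal transport and detoxification family protein, lies at chr5:6388354-6388454 and that of PATL1, a patellin of membrane trafficking, at chr1:27149294-27149394, both on the plus strand. The window of PIN3, an auxin efflux carrier, lies at chr1:26744160-26744260 on the plus strand and that of DWF4, a steroid hydroxylase of brassinosteroid synthesis, at chr3:18816970-18817070 on the minus strand. The summits of the lists were 1 bp apart in AT4G18670, 15 bp in HSL1, 17 bp in AT5G19090, 11 bp in PATL1, 12 bp in PIN3 and 20 bp in DWF4. In all, 183 of the 568 domains had both summits within 1 such window in coding sequence. No such count is given for the other air peaks.

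The domains had a median breadth of 1737 bp, with quartiles of 1594 and 1941 bp. Of the 568 domains, 447 spanned 1500 to 1999 bp, 98 spanned 2000 to 2499 bp, and 23 were broader. They held 8.66% of all bases under air peaks. Breadth formed no separate class at the limit, since 149 air peaks spanned 1500 to 1599 bp and 207 spanned 1400 to 1499 bp. Just inside the limit, the domains over AT1G79120, a ubiquitin hydrolase gene, RAP2.2, an ERF family transcription factor gene, and OPT4, an oligopeptide transporter gene, spanned 1500 bp each. Just outside it, the peaks over AT4G22980, a molybdenum cofactor sulfurase-like gene, the kinase gene AT3G13690 and the heme oxygenase gene TED4 spanned 1499, 1497 and 1497 bp. The domains were spread over the 5 nuclear chromosomes at 4.42 to 5.27 domains per Mb.

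Values of air height went with air breadth in the same list and are given as a description only. The median fold enrichment at the summit was 2.84 in the domains and 2.32 in the 17746 other air peaks. The median number of tags over the summit, recovered from the deposited signal, was 331 in the domains and 259 in the other air peaks. This number could not exceed 400, because tags were extended to 200 bp and a position counted at most once per strand, and 32.2% of the domains (95% Wilson interval 28.5 to 36.2%, counting error only) had 350 tags or more.

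Like other air peaks, most domains lay inside genes and did not cover gene starts. Of the 568 domains, 527 (92.8%) lay over exactly 1 coding gene, 38 over 2 or more, and 3 over none. Exactly 1 coding gene lay under 90.1% of all air peaks and under 93.0% of those of 1000 to 1499 bp. A domain lay wholly inside its leading gene in 90.1% of cases, against 94.8% for the other air peaks. The 565 domains with a coding gene had 565 different leading genes, the leading gene being the one with the longest overlap. Only 34 domains (5.99%, 4.31 to 8.25%) contained the annotated start of a coding gene, against 4.24% of the other air peaks and 4.29% of all air peaks. Within the leading gene, the near edge of the domain lay a median of 165 bp downstream of the start (quartiles 100 and 251 bp), compared with 136 bp for the other air peaks. The near edges thus lay at similar distances. The far edge lay a median of 1925 bp downstream of the start (quartiles 1768 and 2185 bp) in the domains and 764 bp in the other air peaks, a difference that the selection on breadth fixed. The far edge of the domains was still 538 bp (median) before the annotated gene end, and 39 of the 565 domains (6.90%) reached past it. So did 5.45% of air peaks of 1000 to 1499 bp and 2.21% of all air peaks with a coding gene.

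**Figure D1:**
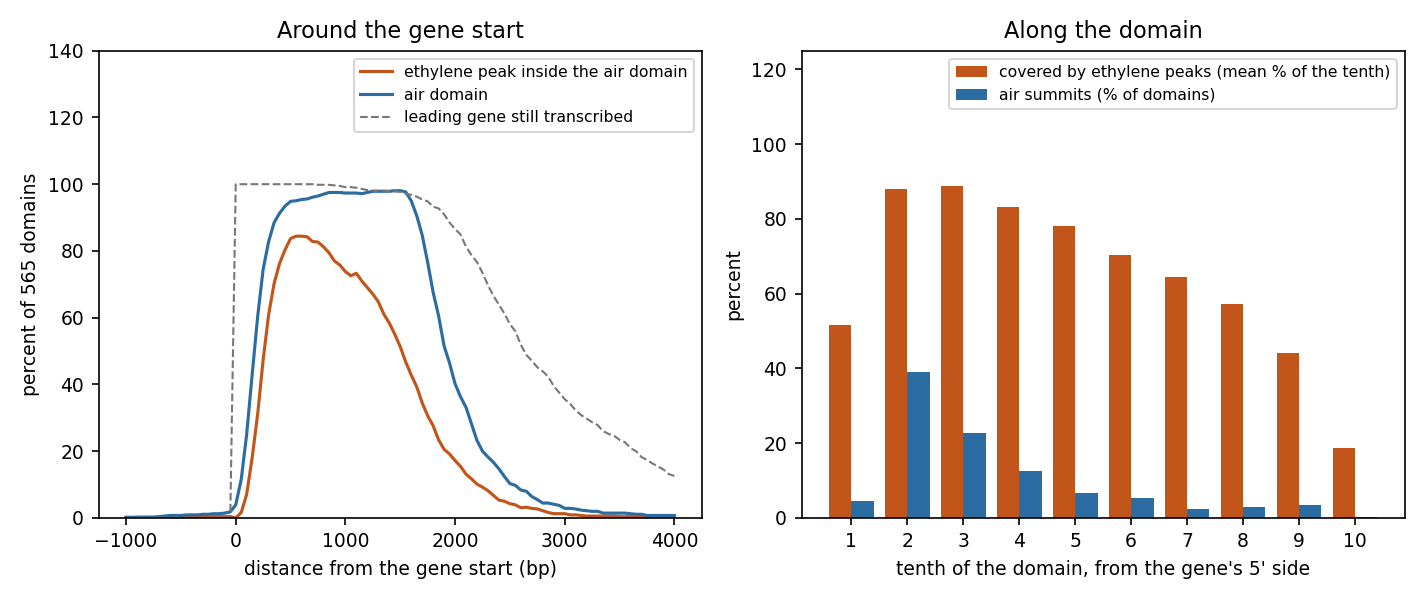
Left, the percent of 565 domains (y axis) that covered each distance from the start of their leading gene in bp (x axis), for ethylene peaks inside the domain, for the air domain, and for the annotated gene itself (dashed). Right, for each of 10 equal parts of a domain counted from the gene's 5′ side, the mean percent covered by ethylene peaks and the percent of domains with their air summit there; the second part of 10 holds more air summits, 39.1%, than any other part, and mean ethylene coverage is 51.6% in the first part, 88.8% in the third and 18.7% in the last.

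The leading genes were of ordinary length for genes with a peak. Their median length was 2638 bp, against 2486 bp for the genes under the other air peaks and 2078 bp for all 27444 coding genes. The domains covered a median of 68.8% of the leading gene (quartiles 53.7 and 79.6%), against 23.5% for the other air peaks, and this contrast too follows from the selection on breadth, since gene lengths were similar. In 39 of the 565 genes the domain covered 90% or more of the gene, and in 116 it covered less than 50%. The leading genes had a median of 3 introns, against 5 in the 13242 coding genes of 1500 bp or more that led any air peak. Genes without an intron made up 16.5% of the leading genes (93 of 565, 13.6 to 19.7%) and 7.23% of those 13242 genes. Few introns were not particular to the domains, since the genes under air peaks of 1000 to 1499 bp had a median of 2 introns with 21.2% lacking any, and all coding genes had a median of 3 with 18.9% lacking any. Of the bases in domains, 61.6% were coding sequence, 22.9% intron, 10.1% 5′ UTR, 3.71% 3′ UTR and 1.73% lay between coding genes. For the other air peaks these shares were 51.1%, 25.1%, 15.5%, 2.50% and 5.69%, and air peaks of 1000 to 1499 bp lay between, with 59.3% coding sequence and 13.7% 5′ UTR. The median GC content was 40.0% in the domains and 40.1% in the other air peaks.

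The summit of a domain lay near its 5′ side. In 557 of the 568 domains (98.1%, 96.6 to 98.9%) the air summit fell in the transcribed part of the leading gene, against 92.3% of the other air peaks. This share was 97.7% in air peaks of 1000 to 1499 bp, so that the contrast was with the narrow peaks. The summit lay a median of 590 bp downstream of the start (quartiles 431 and 899 bp), against 484 bp in air peaks of 1000 to 1499 bp and 332 bp in those under 1000 bp. Seen along the domain, the summit was in the first 25% from the 5′ side in 330 of 565 domains (58.4%, 54.3 to 62.4%) and in the last 50% in 82 (14.5%). This place is a share of breadth, on which the domains were selected, so contrasts between breadth classes cannot be separated from the selection. The summit was in the first 25% in 46.2% of air peaks of 1000 to 1499 bp and in 21.5% of all air peaks. It was in the last 50% in 16.6% of air peaks of 1000 to 1499 bp and in 17.9% of all air peaks, so that most air peaks of any breadth extended farther on the 3′ side of the summit than on the 5′ side. Summits were in coding sequence in 76.8% of the domains (73.1 to 80.0%), against 72.1% of air peaks of 1000 to 1499 bp and 60.0% of all air peaks. In the domains they were in introns in 11.6% and in 5′ UTRs in 10.7%. None of the 568 lay in a 3′ UTR, which allows a share of up to 0.528% (3 counts of the total). Against this pattern, the summit lay more than 1000 bp after the start in 114 domains, such as the one of AT4G18670, where it was 2733 bp after the start and at 90.6% of the domain.

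**Figure D2:**
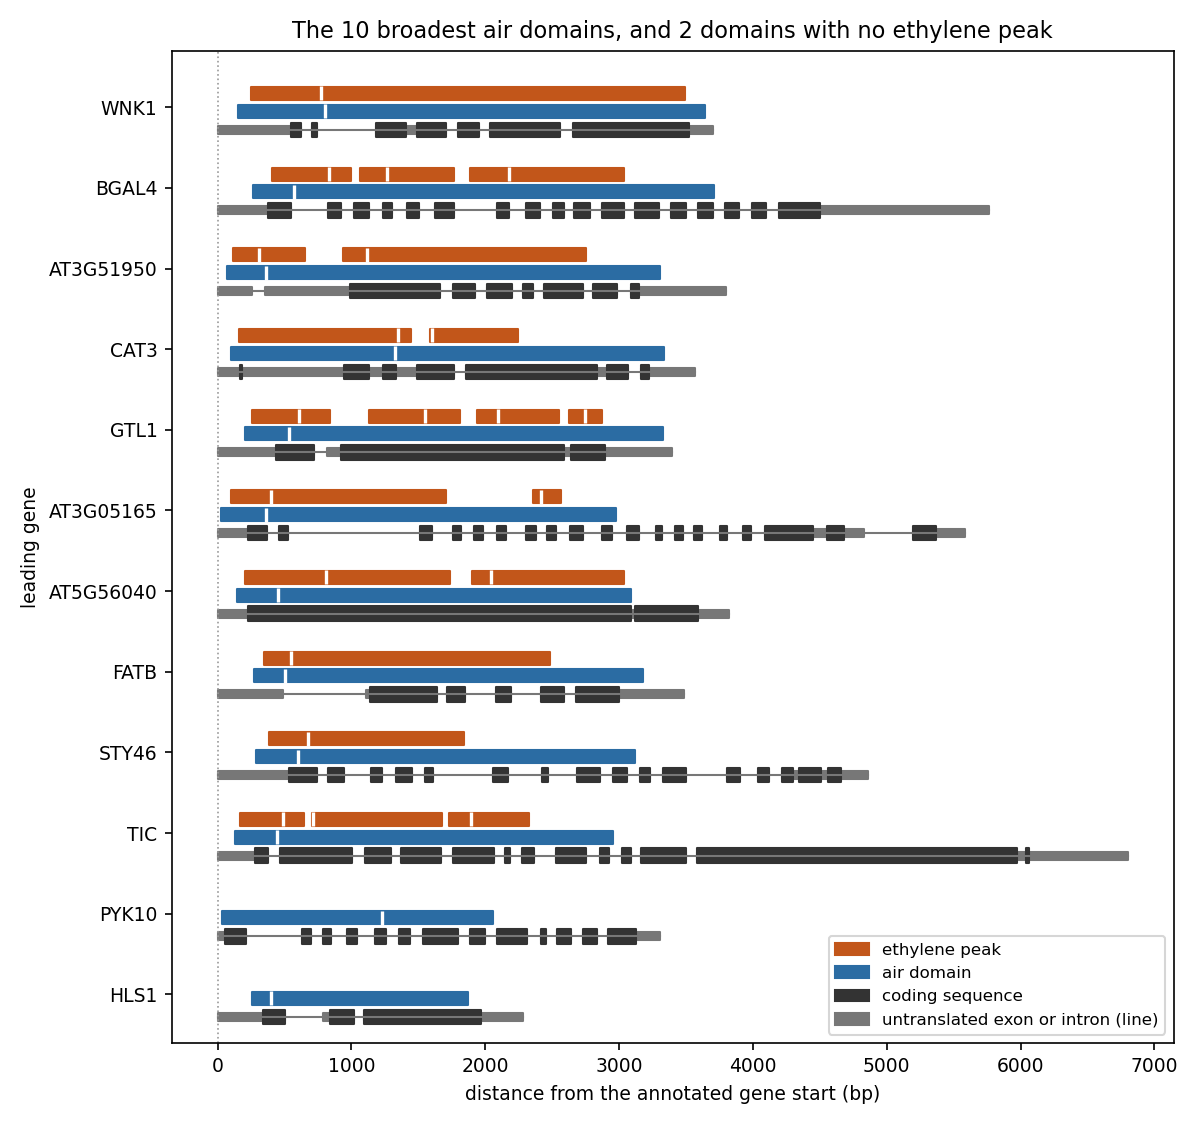
Maps of the 10 broadest domains and of the domains over PYK10 and HLS1, drawn to scale as distance in bp from the annotated start of the leading gene (x axis, one gene per row). The upper bars are ethylene peaks, the middle bar is the air domain, white ticks are summits, and the lower track is the gene with coding sequence in black; the domains begin 25 to 283 bp after the start, and PYK10 and HLS1 have no ethylene peak.

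The broadest domain, 3493 bp (chr3:1354686-1358178), lay over WNK1, which encodes a protein kinase of the WNK family. It covered 94.4% of the gene, with 377 tags at the summit and a fold enrichment of 4.09. The second, 3442 bp, lay over BGAL4, a β-galactosidase, and covered 59.7% of this longer gene. The third, 3240 bp, lay over AT3G51950, which encodes a CCCH zinc finger and RNA recognition motif protein, and covered 85.3% of it. CAT3, a catalase that breaks down hydrogen peroxide, had 3239 bp, and GTL1, a trihelix transcription factor of trichome and root hair growth, had 3121 bp. These genes were thus covered nearly from start to end, at 90.8% of CAT3 and 92.0% of GTL1. The next were AT3G05165, a transporter of the major facilitator superfamily (2948 bp), the receptor-like kinase gene AT5G56040 (2943 bp), and FATB, the plastid thioesterase that releases saturated fatty acids (2907 bp). STY46, a kinase that phosphorylates chloroplast precursor proteins, had 2836 bp, and TIC, a regulator of the circadian clock, had 2827 bp.

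The highest fold enrichment in air was 4.09 over AT5G56240, annotated as a hapless protein, and the same rounded value over WNK1. They were followed by 4.08 over AFP1, which encodes a binding protein of the abscisic acid regulator ABI5, 4.04 over AT1G76880, a homeodomain-like protein, and 3.93 over MYC3, a basic helix-loop-helix factor of jasmonate responses. The lowest was 1.54 over AT1G08590, a receptor-like kinase gene, followed by 1.58 over WES1, a GH3 enzyme that conjugates auxin to amino acids. HLS1, which is required for the apical hook of dark-grown seedlings, had 1.70, EXO70C1, a subunit of the exocyst, 1.70, and AT1G33600, a leucine-rich repeat gene, 1.78. A very broad domain was therefore not always a high one.

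Peaks of the ethylene list overlapped 559 of the 568 domains (98.4%, 97.0 to 99.2%), against 66.1% of the other air peaks and 67.1% of all air peaks. For air peaks of 1000 to 1499 bp this share was 95.8%, so that most of the contrast was with the narrow peaks. The air summit lay inside an ethylene peak in 538 domains (94.7%, 92.6 to 96.3%), against 63.7% of the other air peaks. Here too the contrast was mostly with the narrow peaks, since the share was 91.8% in air peaks of 1000 to 1499 bp. Nearly all domains were thus overlapped, by at least 1 bp, by an ethylene peak, in most cases one that held the air summit. Only 84 domains had an ethylene peak of 1500 bp or more. With only ethylene peaks of at least 2-fold enrichment, 78.5% of the domains were overlapped.

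Where an ethylene peak covered the air summit, the summit height was close in both treatments. In the 538 domains whose air summit lay in an ethylene peak, the ratio of summit tags, ethylene over air, after scaling to the total tags of each list and correction for the limit of 400 tags, had a median of 1.04 with quartiles of 0.973 and 1.09. It lay between 0.8 and 1.25 in 531 of them (98.7%) and was below 0.5 in none. A height under the p limit gives no ethylene peak, so domains with a low ethylene height were left out beforehand. The absence of low ratios therefore cannot show that no domain was much lower in ethylene. When the ethylene peak of highest fold enrichment in the domain was taken instead, the median was 1.02 over 559 domains, against 1.03 over 11724 other air peaks. By this measure 8 of the 559 domains had a ratio below 0.5, and in each of those 8 the ethylene peak of highest fold enrichment had its summit 817 to 1949 bp away from the air summit. One of them was RKF3, a receptor-like kinase gene, with 161 ethylene tags and 358 air tags at points 1270 bp apart. The highest ratio was 1.41 over GH3.17, which encodes an enzyme of the GH3 family, with 316 ethylene tags and 273 air tags.

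Ethylene peaks were narrower than the domains they overlapped. They covered a median of 66.9% of a domain (quartiles 50.8 and 82.5%) and 64.5% of all bases in domains, and the broadest ethylene peak on a domain had a median of 1024 bp. Air peaks of 1000 to 1499 bp, a class that was also cut on breadth in air, were covered to nearly the same median share, 66.6%. For air peaks under 1000 bp the median was 51.0%. The domains were chosen for their breadth in air, and a narrower ethylene partner cannot be told apart from that choice. The comparison was also made from the other side: of the 87 ethylene peaks of 1500 bp or more, all 87 overlapped an air peak, and the air peak was the broader of the pair in 83 of them, with medians of 1655 bp for the ethylene peaks and 1897 bp for the air peaks. Control depth moved with this difference. The ethylene list rested on 8831652 control tags and 61025284 H3K9Ac tags, and the air list on 28617456 control tags and 63192903 H3K9Ac tags, so that signal was scaled by 0.0999 in the ethylene list and by 0.301 in the air list before it was set against background. With the same p limit, an ethylene peak could extend only to points at 69.1% of its summit height (median over the domains' ethylene peaks), whereas a domain in air could extend to 49.4%. The part of control depth in the narrower ethylene peaks was not tested.

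**Figure D3:**
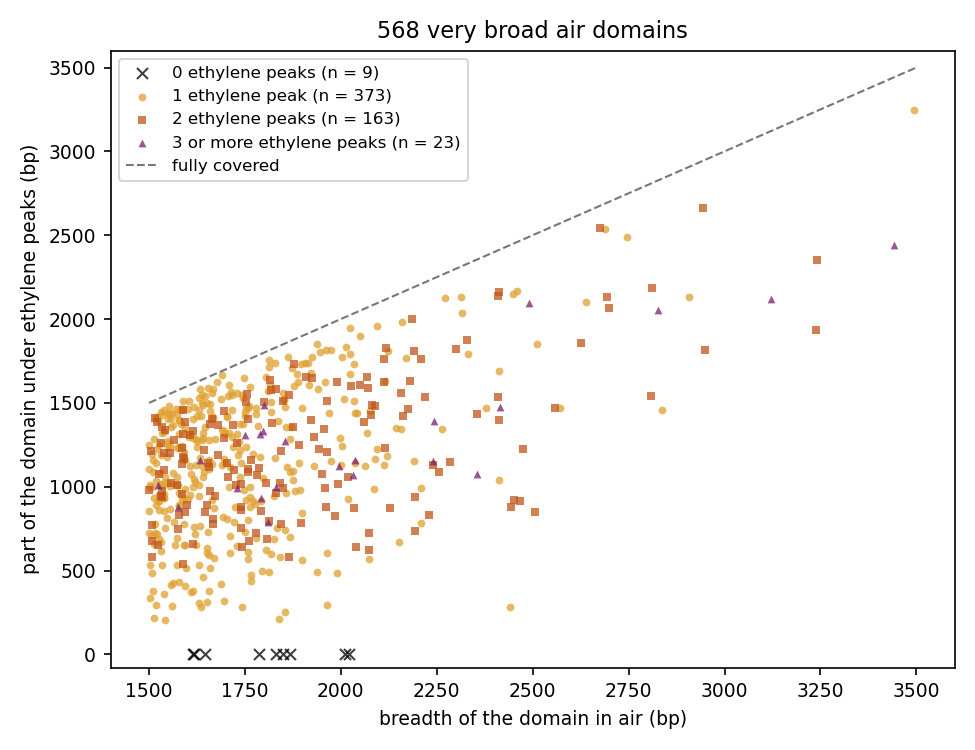
Bases of each of the 568 domains under ethylene peaks (y axis, bp) against its breadth in air (x axis, bp), 1 point per domain, by the number of ethylene peaks on it. Points below the dashed line are domains that ethylene peaks covered in part; the 9 domains at 0 had no ethylene peak, and WNK1 is the point at the upper right with 3247 bp covered.

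Both ends of a domain were less covered in ethylene than the parts next to its 5′ end, and the 3′ end was the least covered. With the domain cut into 10 equal parts, coverage was 51.6% in the first part, 88.0% in the second and 88.8% in the third, and decreased in each later part to 44.2% in the ninth and 18.7% in the last. In distance from the gene start, an ethylene peak within the domain covered 83.7% of the domains at 500 bp, 51.3% at 1500 bp and 17.2% at 2000 bp. The domains themselves covered these points in 94.9%, 98.1% and 40.2% of cases. The bases of domains outside ethylene peaks thus lay mostly toward the 3′ side.

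Many domains were divided in the ethylene list. A single ethylene peak lay on 373 domains (65.7%), 2 on 163 (28.7%), 3 on 22 and 4 on 1. The share with 2 or more was 32.7% (29.0 to 36.7%), against 1.96% of the other air peaks and 2.92% of all air peaks, and it was 13.4% in air peaks of 1000 to 1499 bp. The pieces lay close together, with a median gap of 186 bp in the 163 domains with 2 of them, and the share with 2 or more was 15.8% once ethylene peaks within 200 bp of each other were joined. The piece on the 5′ side had more tags at its summit in 134 of the 163 domains, with a median of 319 tags, against 260 tags on the 3′ side. GTL1 carried 4 ethylene peaks, the broadest of 678 bp. BGAL4, TIC, LRX3, which encodes a leucine-rich repeat extensin of the cell wall, and HMG1, the HMG-CoA reductase of sterol precursor synthesis, carried 3 each.

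An ethylene peak of 1500 bp or more lay on 84 domains (14.8%, 12.1 to 17.9%), against 0.0282% of the other air peaks and 0.486% of all air peaks. The other air peaks were under 1500 bp in air by definition, so this contrast cannot be told apart from the selection on breadth. WNK1 was the broadest in ethylene as well, with 3247 bp that covered 93.0% of the domain. It was followed by AT4G18670 with 2535 bp, AT5G05140, a TFIIS-type elongation factor, with 2491 bp, AT5G19090 with 2170 bp and PATL1 with 2152 bp. The domains most fully covered were those of AT5G56240 (98.5%), WAVH2, a RING finger protein (97.1%), the CBL-interacting kinase gene CIPK12 (97.0%), the myb-like factor gene AT1G68670 (97.0%) and AT4G30350, a Clp-N motif protein (96.2%). The smallest cover above 0 was 11.5% over LTI78, a cold and drought response gene, and over GGH3, a γ-glutamyl hydrolase. It was 13.4% over the receptor kinase gene NIK1, 13.5% over FDH, formate dehydrogenase, and 14.2% over AT4G24060, a Dof-type zinc finger gene. At LTI78 a single ethylene peak of 211 bp had 211 tags at its summit, 75 bp from the air summit with 226 tags, so that the peak was narrow although the heights were close.

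No ethylene peak overlapped 9 domains (1.58%, 0.836 to 2.98%). They lay over PYK10, the main β-glucosidase of endoplasmic reticulum bodies (2021 bp), the kinase gene AT5G26150 (2011 bp), BEH4, a homologue of the brassinosteroid factors BES1 and BZR1 (1867 bp), and AT3G26510, a Phox/Bem1p family gene (1848 bp). The others were the Dof factor gene CDF3 (1832 bp), the sucrose-proton symporter gene SUC1 (1787 bp), the TRAF-like gene ZW9 (1645 bp), AT1G08590 (1616 bp) and HLS1 (1614 bp). Their air signal was weaker, with a median of 248 tags at the summit, against 335 tags in the domains with 1 ethylene peak, and a median fold enrichment of 2.28, against 2.85. AT3G26510 was an exception, with 369 tags and a fold enrichment of 3.24. The domain of AT5G26150 began 2224 bp after the start of that gene and covered 20.5% of it, with its summit beyond the gene end. For these 9 the lists give no height in ethylene, so that a lower level cannot be told apart from a level just under the p limit.

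The 3 domains without a coding gene were not empty of annotation in 2 cases. The domain at chr4:15414107-15415884 lay over MIR156c, which encodes the miR156 microRNA that keeps plants in the juvenile phase, and ethylene peaks covered 80.7% of it. The one at chr4:17280848-17282744 lay over the noncoding RNA gene AT4G36648, 289 bp from the nearest coding gene, with 41.4% covered. The third, chr5:19441806-19443547, had no annotated gene and lay 556 bp from CYP708A2, a cytochrome P450 of the thalianol cluster. CYP708A2 itself led a domain of 1959 bp, and THAS1, the thalianol synthase gene of the same cluster, led one of 2676 bp.

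Starts of 2 or more coding genes were covered by 0.289% of all air peaks and by 1.57% of those of 1000 to 1499 bp. Among the 568 domains, 5 did so (0.880%). Those of AT1G72640 and AT1G72645 and of AT2G20725 and AT2G20740 were divergent pairs with starts 5 and 41 bp apart. A domain of 1957 bp covered 3 starts, those of AT4G21930, AT4G21926 and the calcium-dependent kinase gene CPK15. The other domains of this kind covered AT3G61540 with PANB2 and AT5G51960 with AT5G51970. Neighbouring domains lay less than 5000 bp apart in 37 cases. The longest run held 5 domains in 22763 bp on chromosome 1, over PATL1, the Sec14p-like gene AT1G72160, AT1G72175 and AT1G72200, which encode ubiquitin ligases of the RING type, and the receptor-like kinase gene AT1G72180. Runs of 3 lay over the jacalin-like lectin genes JAL33 and JAL34 with JR1, another lectin gene, and over RMR1, a membrane RING protein, the sulfurtransferase gene STR18 and the armadillo repeat gene ARO2.

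Of all 27444 coding genes, 565 (2.06%) led a domain. This share was 2.89% in coding genes of 1500 bp or more and 4.17% in those of 1500 bp or more that led any air peak. Classes were formed from the annotated product names, and the last of these shares is the one to set beside them. Genes named as transcription factors led a domain in 68 of 737 cases (9.23%, 7.34 to 11.5%) and protein kinase genes in 60 of 855 (7.02%, 5.49 to 8.93%). Cytochrome P450 genes did so in 10 of 111 (9.01%, 4.97 to 15.8%) and ubiquitin ligase or F-box genes in 24 of 438 (5.48%, 3.71 to 8.02%). Shares of 3.64% for transporter or channel genes, 3.14% for RNA binding or splicing genes and 1.97% for chaperone genes had intervals that held the value for all such genes. So did the shares of calcium binding genes, 2.44%, of genes named as hypothetical proteins, 6.45%, and of ubiquitin ligase or F-box genes, 5.48%. Histone genes led a domain in 2 of 9 cases (22.2%, 6.32 to 54.7%). None of 196 ribosomal protein genes led a domain, which allows up to 1.53%. These intervals cover counting error over genes only, and genes are not replicates. The classes also differed in gene length, and a short gene leaves less room for a domain. Median length was 1803 bp for the ribosomal protein genes, against 2698 bp for all such genes. It was 2150 bp for cytochrome P450, 2529 bp for transcription factor and 3270 bp for protein kinase genes. The part of gene length in these shares was not tested.

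**Figure D4:**
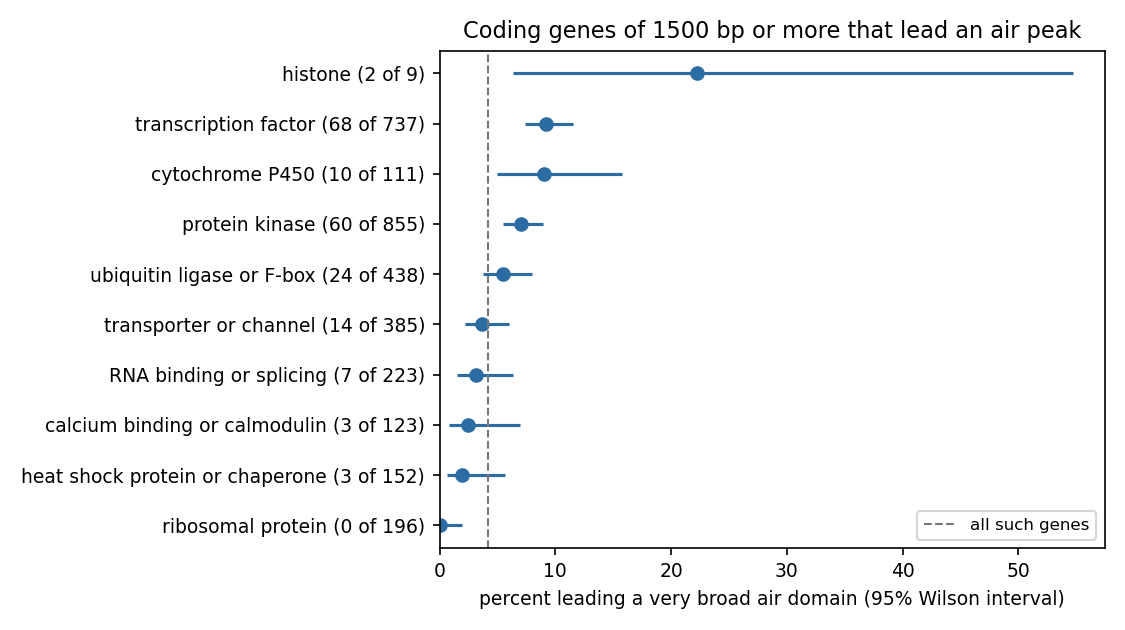
Percent of coding genes of 1500 bp or more with an air peak that led a very broad domain (x axis), by class of annotated product (rows, with counts). Points are shares, bars are 95% Wilson intervals and the dashed line is the 4.17% of all such genes; transcription factor and protein kinase genes lie above it and ribosomal protein genes are at 0.

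Genes of hormone and light pathways were looked up in lists, which were drawn up with earlier results of these data known, so that their counts are a description without a test. The shares to set beside them are 2.06% of all coding genes and 4.17% of those of 1500 bp or more that led an air peak. The list shares are over all listed genes, with or without an air peak. Median gene length ranged from 2221.5 bp in the chloroplast list to 4309 bp in the brassinosteroid list, against 2698 bp behind the 4.17%. It was 3656.5 bp in the auxin list and 3233 bp in the light list, and the part of gene length was not tested. Of 18 auxin genes, 9 led a domain (50%). These were the efflux carriers PIN3, PIN4 and PIN7, the influx carrier AUX1, the transporters ABCB1 and ABCB19, the response factor ARF6, and the repressors IAA3 (annotated as SHY2) and IAA17 (AXR3). Their domains spanned 1550 to 2156 bp, and ethylene peaks covered 23.2% (ABCB19) to 94.2% (PIN4) of them. PIN3, PIN4 and ARF6 kept an ethylene peak of 1500 bp or more, at 1511, 1646 and 1556 bp. Summit tags in the 9 domains were close in both treatments, with ratios, ethylene over air and taken at the ethylene peak of highest fold enrichment, of 0.945 to 1.13.

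Of 27 light signalling and dark growth genes, 9 led a domain (33.3%). They included 3 phytochrome-interacting factors that promote elongation in the dark, PIF3 (2209 bp), PIF4 (1575 bp) and PIF5 (2018 bp, annotated as PIL6), and their relatives PIL1 (1535 bp) and HFR1 (2004 bp). The blue light receptors CRY1 (1568 bp) and PHOT1 (2239 bp), NPH3, the partner of phototropin in phototropism (1858 bp), and the B-box factor BBX21 (1717 bp) were the others. Ethylene peaks covered a median of 52.6% of these 9 domains, and HFR1, at 88.4%, kept the broadest one, 1771 bp. Their ratios of summit tags, by the same measure, were 0.682 to 1.06 with a median of 0.951. The lowest was that of PIF5, with 247 ethylene tags and 307 air tags at points 628 bp apart. PHOT1 was unusual in that its domain began 1812 bp after the start of the gene.

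Of 9 brassinosteroid genes, 4 led a domain (44.4%). DWF4 (1622 bp) and CPD (1767 bp) are hydroxylases of synthesis, BRI1 (2191 bp) is the receptor and BIN2 (2208 bp) the kinase that blocks the response. The BRI1 domain had one of the higher fold enrichments in air, 3.91, with 386 air tags at its summit, and carried 2 ethylene peaks that covered 82.6% of it. The ratios of summit tags were 0.655 in BRI1, 0.678 in CPD, 1.03 in DWF4 and 1.04 in BIN2. In BRI1 and CPD, where the ratio was low, the ethylene peak of highest fold enrichment had its summit 611 and 762 bp from the air summit, and the air summit itself lay in another ethylene peak. Of 15 cell wall, proton pump and water channel genes, 5 led a domain (33.3%): KOR1, a cellulase of cell wall synthesis (1694 bp, annotated as GH9A1), the proton pumps AHA1 (1578 bp) and AHA2 (2018 bp), and the water channels PIP1B (1562 bp) and PIP2A (1557 bp). Of 12 chloroplast genes, 2 led a domain (16.7%), the transcription factors GLK1 (1812 bp, annotated as GPRI1) and GLK2 (1851 bp), with 27.2% and 82.4% covered in ethylene.

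Of the 14 ethylene receptor and signalling genes, all at least 1500 bp long, 13 led an air peak and none led a domain. A count of 0 of 13 is close to the 4.17% of all such genes, and allows a share of up to 23.1%. Their broadest air peak was 1221 bp, over the transcription factor gene EIL1, and EIN2 itself had 913 bp. Of 18 constitutive genes, all led an air peak and 1, UBQ10, led a domain (5.56%, 1670 bp), of which ethylene peaks covered 34.4%. Of 14 flower and seed genes, most of which act in organs that young seedlings lack, 1 led an air peak, LFY with 246 bp, and none led a domain.

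The promoters of the leading genes held a pair of motifs at lower shares than other promoters, given here as a description without a test. In the window from 250 bases before to 50 bases after the start, searched on both strands, the site II element GGCCCA, known from promoters of ribosomal protein and other housekeeping genes, was present in 42 of 565 leading genes (7.43%). It was present in 20.6% of the 12690 other genes of 1500 bp or more that led an air peak and in 15.5% of all coding genes. The telo-box AAACCCTA was present in 1.95% of leading genes, 5.25% of those other long genes and 6.22% of all coding genes. The TATA sequence TATAAA was present in 58.1%, 50.3% and 52.1%. Between 50 and 20 bases before the start on the gene strand, it was present in 8.14% of leading genes. There it was present in 6.67% of the 15195 other genes that led an air peak, of any length, and in 8.06% of all coding genes. The G-box CACGTG, with 8.50%, 9.28% and 7.68%, and the GA repeat GAGAGAGA, with 8.67%, 8.31% and 8.38%, were found at close to the same share in the leading genes, the other long genes and all coding genes. A match is a run of letters and not a bound site.

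**Figure D5:**
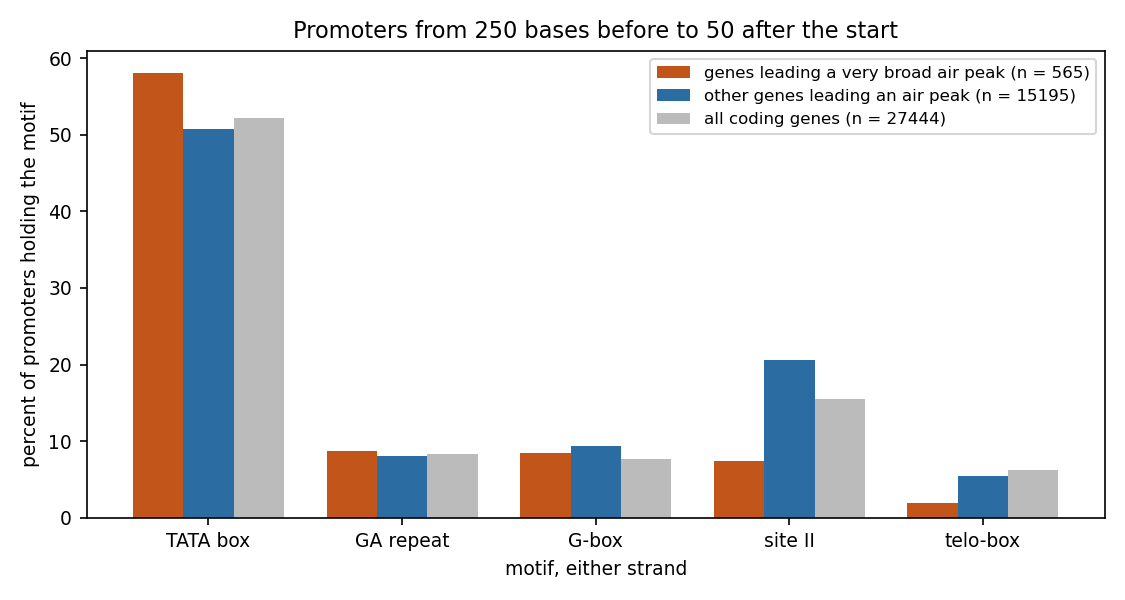
Percent of promoters holding each motif on either strand (y axis), from 250 bases before to 50 after the start, in the 565 genes leading a very broad domain, the 15195 other genes leading an air peak and all 27444 coding genes. The site II element is in 7.43% of the leading genes, 20.6% of the other genes with an air peak and 15.5% of all coding genes.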

How the data were processed

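H3K9Ac peak lists of *ein2-5* seedlings treated with ethylene or air were analysed. Per the submitters' processing notes and the methods, reads were mapped to TAIR10 with Bowtie 1.1.2, processed with SAMtools, and peaks were called by the authors with MACS2 2.1.0.20150603 at a p-value of 0.01 on the pooled libraries of a treatment. The deposited files give the position and breadth of each peak, the summit signal scaled to the smaller data set, the fold enrichment over local background (a ratio, with 1 added to each term) and the −log10 of the p-value. Deposited q-values were not used.

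Summit signal was divided by the scaling factor from the tag totals in the file headers, which gave whole tags (within 0.05) for 100% of the peaks of both lists. The local background was recovered from signal and fold enrichment and gave back the deposited −log10 p within 0.02 for 100% of ethylene peaks and 99.3% of air peaks. From it came the lowest height at which a peak may end. Peaks of the lists were matched by at least 1 bp, and genes were taken from the TAIR10.1 annotation. Coordinates were checked by shifting starts: 63.9% of air peaks overlapped a start or its first 200 bp, and 41.8% and 42.9% after shifts of -250 and 250 bp.

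With 1 pooled list per treatment no test across samples was possible. Shares have 95% Wilson intervals, which cover counting error only. Named genes are the leading genes of the 10 broadest domains, of those with extreme fold enrichment, number of ethylene peaks, ethylene cover or ethylene breadth, of domains over several starts, next to the limit or without an ethylene peak, and of the listed genes; others were named after their values were seen. The members, the 8 gene lists (127 entries) and the choices were made with earlier results of these data known. The computations were tested on simulated peaks and run in Python 3.11.15 with pandas 2.3.3, numpy 2.4.6, scipy 1.17.1 and statsmodels 0.14.6. Libraries one by one, other marks, Col-0 and transcript levels were not analysed here.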

Additional observations from a re-analysis of the deposited data

How the results depend on the processing

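The number of domains was 1180 at a breadth limit 250 bp lower, 121 at 2000 bp and 203 when a fold enrichment of at least 3 was required, against 568. At these lower and higher limits, 24.9% and 53.7% of the domains carried 2 or more ethylene peaks, 7.29% and 26.4% an ethylene peak of 1500 bp or more, and the median leading gene was covered to 64.4% and 77.2% and was 2483 and 3088 bp long. With only ethylene peaks of at least 2-fold enrichment, 78.5% of the domains were overlapped, 14.1% carried 2 or more, 11.4% carried one of 1500 bp or more, and the median cover was 54.3%. After joining ethylene peaks within 200 bp, 15.8% carried 2 or more and 21.7% one of 1500 bp or more. Taking the gene with the nearest start as leading gene placed 95.2% of summits in it, and counting noncoding genes and pseudogenes put 10.4% of domains over a start. The median ratio of summit tags was 1.04 with the ethylene peak that contains the air summit, an alternative chosen after seeing the data, as was that of domains under 350 tags (1.02). The other 31 of 51 values stayed within the interval of the reported value or within 1.5 times a count. No paired analysis was possible because each treatment has 1 pooled list. Heights under the p limit, differences between libraries and the limit of 400 tags bound what the lists can show.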
